A study of Mus musculus with 15 samples.

Results

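Cytosolic ribosomal proteins are the protein parts of the ribosomes that translate nuclear-encoded mRNAs, and their genes are named Rpl for the large subunit and Rps for the small one. The members described here are the genes with such a symbol, together with Rplp0 of the large subunit's stalk and Rpsa of the small subunit. Kinases with an Rps6k symbol and pseudogenes were left out. A probe set, the group of oligonucleotides that measures a transcript on the array, had to carry a single symbol in the platform annotation, and where a gene had several, the one with the highest mean signal over all arrays stood for it. This gave 35 genes of 8251 with a single symbol on the array, 17 of the large and 18 of the small subunit, from 49 probe sets. The members are therefore a sample of the ribosome and not the whole of it.

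The cells were dendritic cells (DC), which present antigen to T cells, grown for 4 days from bone marrow of female NOD mice aged 6 to 8 weeks, a strain that develops autoimmune diabetes. GM4 DC were grown with GM-CSF and interleukin-4, each at 1 ng/ml, and GM DC with GM-CSF at 1 ng/ml alone, so every group carried GM-CSF. The series title names GM4 DC as therapeutic and GM DC as not. Both were stimulated with bacterial lipopolysaccharide (LPS) at 10 µg/ml and interferon-γ at 50 ng/ml, and RNA was taken at 0, 6 and 20 h. There were 3, 3 and 2 arrays of GM4 DC at 0, 6 and 20 h and 3, 2 and 2 arrays of GM DC. The cells were enriched on a metrizamide gradient of 14.5% for GM4 DC and 16% for GM DC, so the gradient differed with the culture. The labels of 1 GM4 array at 0 h lack the culture doses and the gradient, and the source names of the GM4 0 h samples mention stimulation although their titles give 0 h.

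Median signal was 40.03 to 48.36 per array, and replicates correlated at 0.966 or more. All 13 listed genes of dendritic cells and antigen presentation were measured, with mean signals from 87.2 for Ciita to 6187 for Cd74. The summed signal of listed B cell genes stayed between 81.3 and 217 per array and that of T and NK cell genes between 41.0 and 243, with 5 of the 6 measured T and NK genes under a mean signal of 16. Listed neutrophil genes summed to 9505 to 14998 in GM4 DC at 0 h, 7675 to 11053 at 6 h and 2781 to 2936 at 20 h, and to 8331 to 9050, 6193 to 9180 and 3193 to 4146 in GM DC. The cultures therefore carried neutrophil transcripts whose summed signal was lower at 20 h. In the test described below, 7 of the 9 listed genes were lower and 1 higher at 20 h than at 0 h in GM4 DC. In GM DC 5 were lower and 1 higher. The shares of all probe sets were 12.3% lower and 8.71% higher in GM4 DC, and 16.0% lower and 11.0% higher in GM DC. All 7 listed genes of monocytes and macrophages were measured, with mean signals from 234 for Adgre1 to 4526 for Cd14. They summed to 4250 to 4687 in GM4 DC at 0 h, 4589 to 6174 at 6 h and 8320 to 8383 at 20 h, and to 12537 to 15190, 16636 to 23628 and 14348 to 15461 in GM DC, so every GM4 sum lay below every GM sum. The β-actin 3′/5′ signal ratio, which rises as RNA is degraded, was 1.13 to 1.44 on GM4 arrays and 1.43 to 2.26 on GM arrays, and it was highest, at 2.15 to 2.26, in GM DC at 20 h. The Gapdh ratio was 1.03 to 1.48 on GM4 arrays and 1.18 to 2.46 on GM arrays, and there the highest was GM DC replicate 3 at 0 h, with 1.51 to 1.55 in GM DC at 20 h.

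Ribosomal protein mRNAs are among the most abundant mRNAs of a cell, and the proteins are needed in equal amounts for each ribosome. Many of these mRNAs in vertebrates begin with a run of pyrimidines, the 5′ terminal oligopyrimidine (TOP) tract, through which mTOR and the protein Larp1 control their translation. Stimulated dendritic cells are known to change their rate of protein synthesis as they mature.

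The starts of 28 members were found by Entrez gene number in RefSeq's promoter table, build GRCm38.p6, which holds 250 bases before and 50 after each annotated start. The lines below show 15 bases on each side of the start, and capitals mark the run of C and T that begins at the start. The first 5 are all the members with a start that meets the TOP definition used here, a C followed by at least 4 further bases that are C or T. The other 4 are members whose signals are given later. Rpl7a and Rps24 start on T within a pyrimidine run, and Rpl13a and Rpl41 start on G.
Rps10 (chr17:27635230-27635259, minus strand): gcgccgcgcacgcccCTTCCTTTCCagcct
Rps18 (chr17:33955651-33955680, minus strand): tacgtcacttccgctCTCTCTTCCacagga
Rpl35a (chr16:33056467-33056496, plus strand): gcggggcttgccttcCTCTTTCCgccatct
Rpl38 (chr11:114668565-114668594, plus strand): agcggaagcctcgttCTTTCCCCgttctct
Rps27 (chr3:90213634-90213663, minus strand): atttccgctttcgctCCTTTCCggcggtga
Rpl7a (chr2:26910792-26910821, plus strand): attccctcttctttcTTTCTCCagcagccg
Rps24 (chr14:24490663-24490692, plus strand): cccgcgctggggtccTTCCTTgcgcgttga
Rpl13a (chr7:45128731-45128760, minus strand): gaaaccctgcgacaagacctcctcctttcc
Rpl41 (chr10:128549154-128549183, minus strand): cacacgggccggctcggaagtgacgacacc

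The TOP definition was met by 5 of 28 members, 17.9%, against 3.01% of the 27025 genes in the table. A gene counted if any of its annotated starts met it, and an annotated start need not be the one these cells use. Beside the results below, 2 of the 17 matched members that were lower in GM DC at 20 h met it, and 3 of the 11 that were not. The 2 were Rps10 and Rps18, with mean signals of 3318 and 3895. The 3 were Rps27, at 224, and Rpl35a and Rpl38, at 18.7 and 13.5, low signals at which a fall could hardly show. These counts therefore cannot tell whether members with a TOP start fell more or less than others. The motif CCGGAAG, which ETS family factors bind, was searched on both strands over the whole window and was present in 12 of 28 members, 42.9%, against 9.93% of all genes. TATAAA, searched on the coding strand between 40 and 16 bases before the start, was in 0 of 28 members and in 2.41% of all genes. The promoter of Rps18 shows the layout, with CCGGAAG and the tract in capitals in 100 bases before the start and 15 after it.
Rps18 (chr17:33955651-33955765, minus strand): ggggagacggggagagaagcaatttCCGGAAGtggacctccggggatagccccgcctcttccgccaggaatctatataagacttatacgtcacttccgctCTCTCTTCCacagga

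Taken as a sum, the 35 members made up 3.28%, 2.92% and 3.24% of the signal of all probe sets on the 3 GM4 arrays at 0 h, then 2.75%, 2.67% and 3.07% at 6 h and finally 2.02% and 1.84% at 20 h. In GM DC the 3 arrays at 0 h had 2.89%, 2.79% and 2.73%, the 2 at 6 h had 2.62% and 2.60%, and the 2 at 20 h had 1.42% and 1.38%. The share was lowest at 20 h in both cultures, with no overlap with the 2 earlier times, and the GM arrays at 20 h lay below the GM4 arrays. Group means at 0, 6 and 20 h were 3.15 ± 0.194%, 2.83 ± 0.208% and 1.93 ± 0.122% in GM4 DC and 2.80 ± 0.0807%, 2.61 ± 0.0161% and 1.40 ± 0.0282% in GM DC (SD, n as above). The arrays had been scaled to a common mean, so a change in the RNA content of a cell would not appear, and in such mixed cultures fewer cells of a type and less RNA per cell cannot be told apart.

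**Figure D1:**
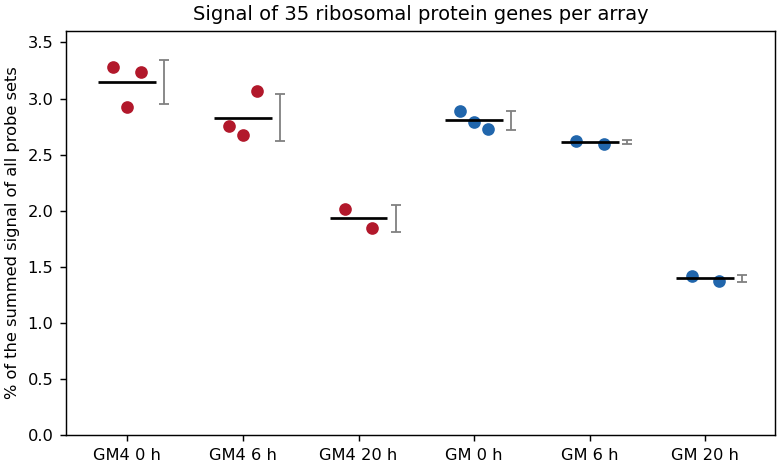
Share of the signal of all probe sets that came from the 35 ribosomal protein genes (y axis, %), by group. Points are arrays, black lines group means and grey bars ± 1 SD. GM4 DC averaged 3.15, 2.83 and 1.93% at 0, 6 and 20 h and GM DC 2.80, 2.61 and 1.40%.

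Members differed widely in how bright their probe sets were, and 20 had a mean log2(signal + 16) over 8, a line drawn after the values were seen. Just above it lay Rpl13a at 8.81 and just below it Rps27 at 7.90, and of all probe sets 18.1% were over it. The brightest were Rpl41, Rps24 and Rplp0, with mean signals of 8417, 6774 and 5264, and the dimmest Rps27l, Rps15 and Rps20, with 3.49, 6.41 and 10.9. Brightness depends on the probes as well as on the mRNA, so these signals do not rank the transcripts, and 6 members had a mean signal under 16, where a change could hardly be measured. All 35 were tested, since no filter was applied. Changes below are given as differences on the log2(signal + 16) scale, on which changes of dim probe sets look too small, ± limma's standard error, and a gene was called where the Benjamini-Hochberg adjusted p over all 12422 probe sets was under 0.05.

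At 20 h after LPS and interferon-γ, 16 of 35 members were lower than at 0 h in GM4 DC and none was higher, where 12.3% of all probe sets were lower and 8.71% higher. In GM DC 20 of 35 were lower and none higher, where 16.0% of all probe sets were lower and 11.0% higher. The median member differed by -0.46 in GM4 DC and by -0.89 in GM DC, where the median of all probe sets differed by 0.04 and 0.01. The called falls lay almost wholly in the brighter members, of which 16 of 20 in GM4 DC and 17 of 20 in GM DC were lower, with median differences of -0.86 and -1.54. Among all probe sets as bright, 23.2% in GM4 DC and 28.7% in GM DC were lower. Changes of dim members look too small on this scale, so falls among them could be missed. This holds less for Rps27, just under the line with a mean signal of 224. It differed by 0.05 in GM4 DC and by 0.21 in GM DC, and neither passed. The 16 members lower in GM4 DC were also lower in GM DC, 100% of the GM4 list and 80% of the GM list, and the fall was larger in GM DC for all 16. Both subunits took part, with 7 of 17 large and 9 of 18 small subunit genes lower in GM4 DC and 10 of 17 and 10 of 18 in GM DC.

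Among large subunit genes, the largest falls were in Rpl8 and Rpl10a. Rpl8 had signals of 1254 and 979 in GM4 DC at 20 h, against 3358, 3275 and 3930 at 0 h, and of 449 and 397 in GM DC at 20 h, against 2809, 2585 and 2308 at 0 h. In both cultures every 20 h array lay far below every 0 h array, and the difference was -1.65 ± 0.16 in GM4 DC (limma adjusted p = 8.25e-06) and -2.55 ± 0.16 in GM DC (limma adjusted p = 9.58e-08), 3.14-fold and 5.88-fold lower. Rpl10a had 1010 and 683 in GM4 DC at 20 h, against 3239, 2702 and 2792 at 0 h, and 317 and 258 in GM DC at 20 h, against 2506, 1612 and 1227 at 0 h. Its fall was 3.44-fold in GM4 DC and 5.70-fold in GM DC, although its GM arrays at 0 h were spread from 1227 to 2506. A further probe set of Rpl10a gave -0.88 in GM4 DC and -2.55 in GM DC, also lower in both. Rpl6 and Rpl7a, both of the large subunit, were 2.29-fold and 2.14-fold lower in GM4 DC and 3.37-fold and 3.39-fold lower in GM DC.

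Among small subunit genes Rps19 fell most. Rps19, whose human gene is mutated in Diamond-Blackfan anaemia, had 1002 and 1131 in GM4 DC at 20 h, against 3515, 2649 and 2825 at 0 h, and 381 and 273 in GM DC at 20 h, against 2117, 1752 and 1255 at 0 h. The arrays did not overlap between times, and the difference was -1.47 ± 0.22 in GM4 DC and -2.32 ± 0.22 in GM DC (limma adjusted p = 0.000312 and 3.15e-06). Rps18, with the TOP start shown above, had 2813 and 2390 in GM4 DC at 20 h, against 5598, 4354 and 5634 at 0 h, and 1425 and 1127 in GM DC at 20 h, against 4755, 4579 and 4295 at 0 h. Its signal was thus 1.98-fold lower in GM4 DC and 3.55-fold lower in GM DC. Rps10, the other bright member with a TOP start, was 2.13-fold and 3.64-fold lower. Rps3, which in human cells also binds the NF-κB subunit p65, had 2176 and 1937 in GM4 DC at 20 h, against 4058, 3925 and 4098 at 0 h, and 1100 and 969 in GM DC at 20 h, against 3236, 3115 and 2907 at 0 h. Rps4x was lower by 0.79 in GM4 DC and by 1.54 in GM DC on its brightest probe set, but a dim one of the same gene was higher by 2.25 and 2.85. With all its probe sets averaged, Rps4x came out 0.36 higher in GM4 DC, which did not pass, and 0.43 higher in GM DC, which did (limma adjusted p = 0.0307), so its direction rests on the choice of probe set.

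Differences were smaller for Rplp0, the scaffold of the large subunit's stalk, and for Rpsa, also known as the laminin receptor. Rplp0 had 4635 and 4133 in GM4 DC at 20 h, against 6365, 5337 and 6438 at 0 h, a difference of -0.46 ± 0.17 that did not pass (limma adjusted p = 0.0664). In GM DC it had 3688 and 3207 at 20 h, against 5774, 5436 and 5429 at 0 h, and was lower by 0.69 ± 0.17 (limma adjusted p = 0.00624). Its arrays were lower at 20 h in both cultures without overlap. Rpsa was 1.56-fold lower in GM4 DC and 1.77-fold lower in GM DC, and Rps28 1.41-fold and 1.95-fold lower, with a further bright probe set of Rps28 at -0.89 and -1.24. The call of Rps28 in GM4 DC was kept in 9 of 15 alternative settings. The same amount of each protein goes into a ribosome, but the falls among called bright members ran from 1.61-fold to 5.88-fold in GM DC.

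**Figure D2:**
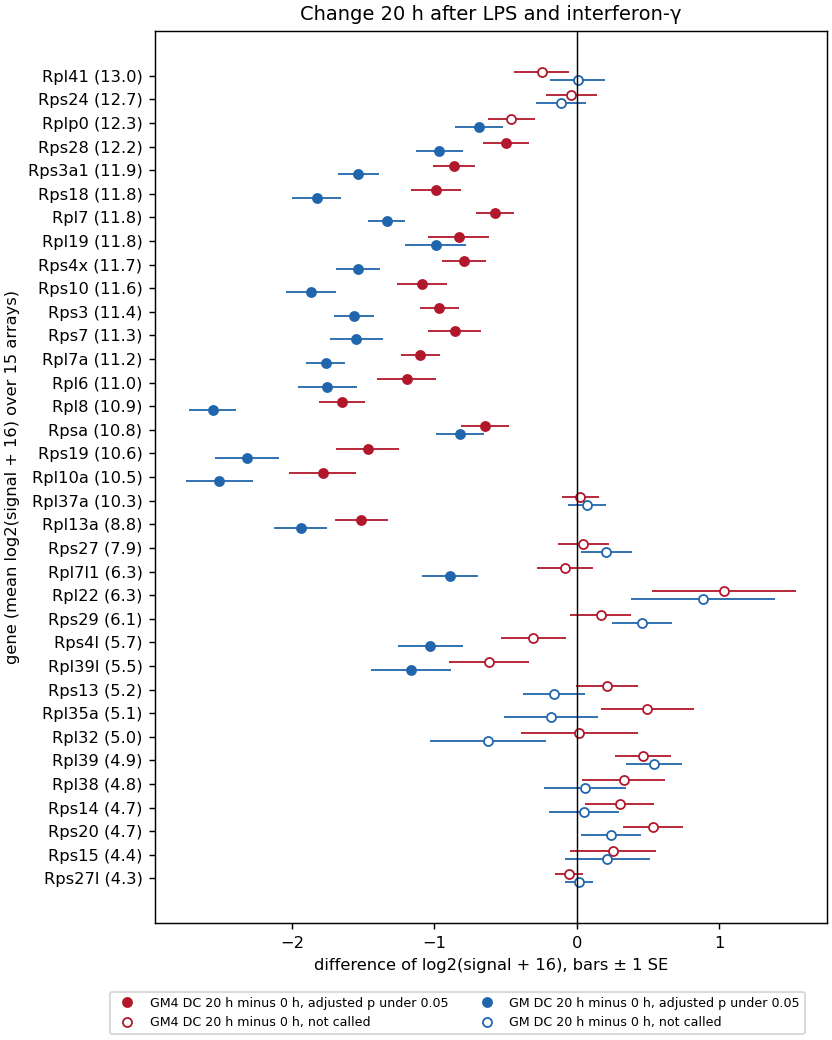
Difference of log2(signal + 16) at 20 h from 0 h (x axis) for the 35 ribosomal protein genes, ordered from the brightest probe set (mean log2(signal + 16) in brackets) to the dimmest. Red is GM4 DC and blue GM DC, bars are ± 1 SE, and filled points have an adjusted p under 0.05. Most of the 20 bright members lie left of 0, with GM DC further left, while Rpl41, Rps24 and Rpl37a lie between -0.25 and 0.07.

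Of the bright members, 3 did not pass the test at 20 h in either culture: Rpl41, Rps24 and Rpl37a. Rpl41, which encodes a very short peptide of the large subunit, had 6571 and 6595 in GM4 DC at 20 h, against 8451, 6976 and 8093 at 0 h, and 8656 and 9189 in GM DC at 20 h, against 8257, 9553 and 8885 at 0 h. Its GM4 arrays at 20 h thus lay below those at 0 h, while its GM arrays overlapped. Rps24, of the small subunit, had 5743 and 5770 in GM4 DC at 20 h, against 6092, 5157 and 6594 at 0 h, and 7039 and 7313 in GM DC at 20 h, against 7282, 7946 and 8035 at 0 h. Rpl37a, of the large subunit, had 1036 and 1395 in GM4 DC at 20 h, against 1107, 1246 and 1197 at 0 h, and 1166 and 1165 in GM DC at 20 h, against 1023, 1137 and 1177 at 0 h. The differences were -0.25 ± 0.19, -0.04 ± 0.18 and 0.02 ± 0.13 in GM4 DC and 0.01 ± 0.19, -0.11 ± 0.18 and 0.07 ± 0.13 in GM DC, and none passed. Ribosomal protein genes have many processed pseudogenes, so signals of members with such copies are uncertain.

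Few of the dim members were called. In GM DC at 20 h 3 of 15 were lower, where 16.0% of all probe sets were, so this share was near the background. They were Rpl39l, Rps4l and Rpl7l1, at -1.16, -1.03 and -0.89. In GM4 DC 0 of 15 were lower, where 12.3% of all probe sets were, and these 3 were at -0.62, -0.31 and -0.09. All 3 are paralogues of a canonical member. Rpl7l1 had 61.4 and 59.5 in GM4 DC at 20 h, against 65.6, 60.98 and 69.2 at 0 h, and 47.1 and 31.7 in GM DC at 20 h, against 79.7, 73.8 and 107 at 0 h. Its canonical partner Rpl7 was lower in both, at -0.57 in GM4 DC and -1.33 in GM DC. Rpl39 was at 0.47 and 0.54, which did not pass. Rps4l had 30.2 and 39.9 in GM4 DC at 20 h, against 40.5, 53.8 and 46.8 at 0 h, and 12.5 and 10.2 in GM DC at 20 h, against 34.6, 36.5 and 49.2 at 0 h, and a second dim probe set of Rps4l gave 0.47 and 0.36, which did not pass. For the pair of Rps27 and its paralogue Rps27l no difference passed, and Rps27l was at a signal of 5.83 or less on every array. The largest increase was that of Rpl22, needed in mice for the development of T cells, at 1.03 ± 0.50 in GM4 DC and 0.89 ± 0.50 in GM DC, neither of which passed. A second probe set of Rpl22 as dim as the first was lower, at -1.14 in GM4 DC and -1.42 in GM DC, so the 2 probe sets of this gene disagreed.

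Counted by arrays alone, 20 of 35 members had every GM4 array at 20 h below every one at 0 h and 4 had every one above, where 24.3% of all probe sets were below and 25.4% above. In GM DC 21 of 35 were below, where the share of all probe sets was 24.4%, and 3 above, where it was 24.0%. Of 8 measured genes of proliferating cells, 7 were lower at 20 h in each culture, with medians of -2.37 in GM4 DC and -3.23 in GM DC. Of all probe sets 12.3% were lower in GM4 DC and 16.0% in GM DC. At 6 h 1 of the 8 was lower in GM4 DC (median -0.79) and 6 in GM DC (median -1.64). The shares of all probe sets were then 10.0% and 15.7%. The summed signal of these 8 genes per array was 1611 to 2731 at 0 h, 1116 to 1593 at 6 h and 699 to 722 at 20 h in GM4 DC, and 3230 to 3737, 1048 to 1900 and 755 to 764 in GM DC. Their sum was already lower at 6 h in both cultures, without overlap with 0 h. The share of the ribosomal protein genes was then 2.83% in GM4 DC, against 3.15% at 0 h, and 2.61% in GM DC, against 2.80% at 0 h. Their summed signal averaged 74246 in GM4 DC, against 82593 at 0 h. In GM DC it averaged 75302, against 73696 at 0 h, so there the sum itself was not lower. The part of proliferating cells and of the neutrophil transcripts above in the 20 h fall was not tested.

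At 6 h few members had moved. In GM4 DC 1 of 35 was lower and none higher than at 0 h, where 10.0% of all probe sets were lower and 5.84% higher, and the median member differed by -0.11. In GM DC 1 was lower and 2 were higher, where 15.7% of all probe sets were lower and 8.52% higher, with a median of -0.01. The member lower in both was Rpl13a, which in human myeloid cells leaves the ribosome after interferon-γ and silences the translation of inflammatory mRNAs. Rpl13a had 401, 526 and 589 in GM4 DC at 6 h, against 655, 840 and 896 at 0 h, and 264 and 318 in GM DC at 6 h, against 554, 721 and 769 at 0 h. All 6 h arrays lay below all 0 h arrays, and the difference was -0.65 ± 0.17 in GM4 DC (limma adjusted p = 0.016) and -1.18 ± 0.19 in GM DC (limma adjusted p = 0.000337). By 20 h it was down to 277 and 256 in GM4 DC and 173 and 156 in GM DC, 2.85-fold and 3.83-fold below 0 h. The call in GM4 DC at 6 h was lost when replicate 1 of the 6 h arrays (-0.49), replicate 2 of the 0 h arrays (-0.60) or replicate 3 of the 0 h arrays (-0.56) was left out.

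The members higher in GM DC at 6 h were Rpl37a, by 0.69 ± 0.13 (limma adjusted p = 0.00141), and the dim Rpl39, by 0.59 ± 0.20 (limma adjusted p = 0.0426). The call of Rpl39, whose mean signal was 14.1, was kept in 6 of 14 alternative settings. Rpl37a had 1895 and 1720 in GM DC at 6 h, against 1023, 1137 and 1177 at 0 h, while in GM4 DC it had 1196, 1174 and 1215 at 6 h, against 1107, 1246 and 1197 at 0 h. The difference between these 6 h responses, GM4 minus GM, was -0.68 ± 0.18 and did not pass (limma adjusted p = 0.0911), the lowest adjusted p among the members. With quantile normalization 9 members were lower and 3 higher in GM DC at 6 h, so the near absence of change there depends on how arrays are scaled.

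**Figure D3:**
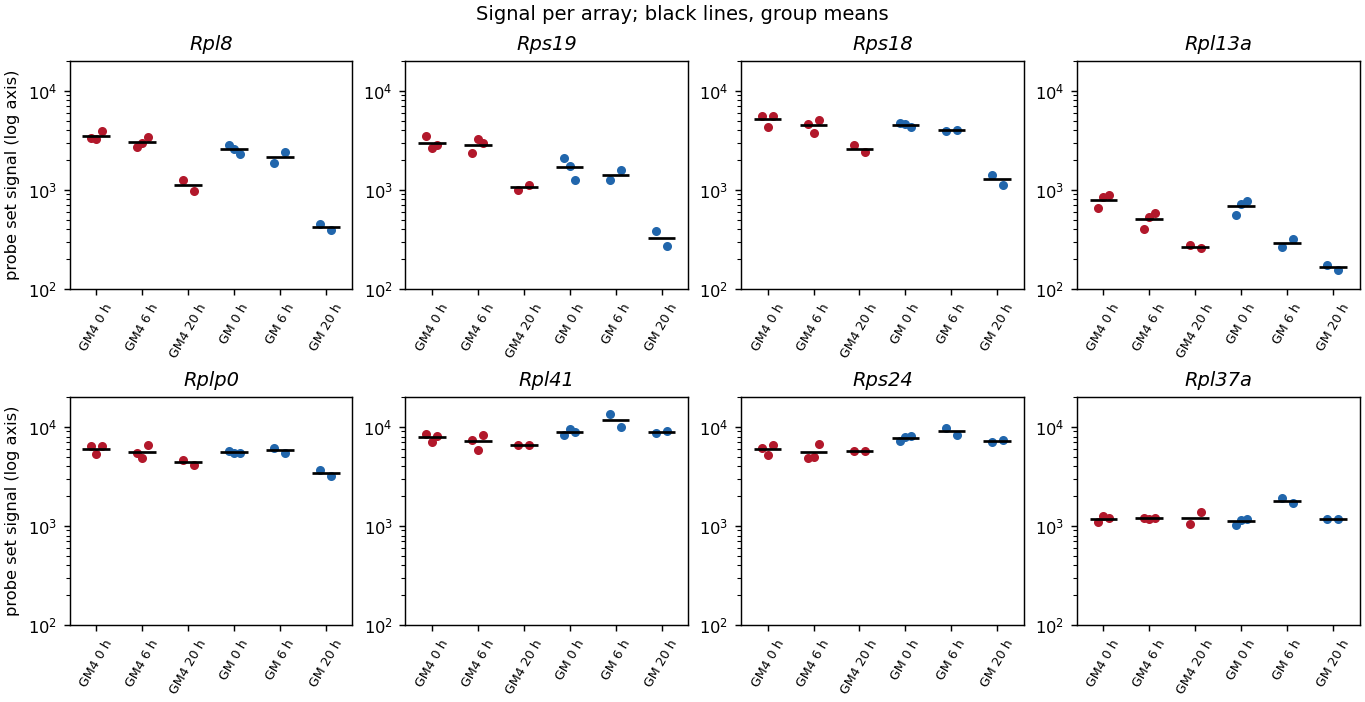
Signal per array (y axis, log scale) of 8 ribosomal protein genes in GM4 DC (red) and GM DC (blue) at 0, 6 and 20 h, with black lines for group means. Rpl8, Rps19 and Rps18 fall at 20 h, Rpl13a is already lower at 6 h, Rplp0 differs less, and Rpl41, Rps24 and Rpl37a at 20 h overlap or nearly overlap 0 h.

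Few of these genes differed between GM4 DC and GM DC before stimulation. At 0 h 4 of 35 members were higher in GM4 DC and none lower, where 6.86% of all probe sets were higher and 7.12% lower, and the median member differed by 0.00. Among all probe sets over 8, 17.5% were higher, so the share of members was near the background. They were Rps19, with 3515, 2649 and 2825 in GM4 DC and 2117, 1752 and 1255 in GM DC, and Rpl10a, Rpl19 and Rps7, at differences of 0.83, 0.76, 0.67 and 0.54. A further probe set of Rpl10a gave -0.09, which did not pass. None of the 4 calls held with the 3′/5′ ratios of Gapdh and β-actin as a covariate, nor without replicate 1 of GM4 DC, nor without replicate 3 of GM DC, and 1 held without replicate 3 of GM4 DC or replicate 2 of GM DC. Of the 7 listed monocyte and macrophage genes, 6 were lower in GM4 DC at 0 h, 7 at 6 h and 2 at 20 h, with none higher, and their part in the differences between the cultures was not tested.

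At 6 h 2 members were higher in GM4 DC, where 6.39% of all probe sets were, and 3 were lower, where 4.74% were, so both shares were near the background. The higher ones were Rps19, by 0.99 ± 0.22, and Rpl13a, by 0.75 ± 0.19. Rps19 had 2357, 3248 and 2993 in GM4 DC and 1272 and 1583 in GM DC. The lower ones were the 3 bright members that did not pass at 20 h in either culture: Rpl41 by 0.72, Rps24 by 0.72 and Rpl37a by 0.59. Rpl41 had 7343, 5832 and 8295 in GM4 DC and 13508 and 10057 in GM DC, and its difference turned to 0.12 with quantile normalization, which gave 14 members higher and 1 lower. With replicate 1 of GM DC left out 0 members were called, with replicate 2 of GM4 DC left out 2, and with the RNA ratios as a covariate 1.

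At 20 h more of these genes differed between the cultures. In GM4 DC 12 of 35 members were higher than in GM DC and none lower, where 3.14% of all probe sets were higher and 1.56% lower. The median member differed by 0.35 and the median of all probe sets by -0.04. All 12 were among the 20 bright members, whose median difference was 0.89, and 10.0% of all probe sets as bright were higher. Rps19 differed most, at 1002 and 1131 in GM4 DC and 381 and 273 in GM DC, 3.19-fold higher (limma adjusted p = 0.00151). Rpl10a, Rpl8, Rps7 and Rps4x followed, at 2.80-fold, 2.56-fold, 2.35-fold and 2.21-fold, and Rpl6, Rps18, Rps3, Rpl7a, Rpl7, Rps10 and Rps3a1 were between 1.64-fold and 2.10-fold higher. Rps4x turned to -0.11 with all its probe sets averaged. Every GM4 array lay above every GM array for 19 of 35 members and below for 2, where the shares of all probe sets were 22.5% and 25.6%.

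The RNA ratios moved with this difference, since β-actin's 3′/5′ ratio was 1.298 and 1.346 in GM4 DC and 2.154 and 2.256 in GM DC at 20 h, and with them as a covariate 5 members were called and the median member differed by 0.47. Without GM4 20 h replicate 1 there were 6 calls, and without GM 20 h replicate 2 there were 7.

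The fitted fall at 20 h was smaller in GM4 DC for most members, but limma's test of the difference of responses itself called 0 of 35. The difference, GM4 minus GM, was above 0 for 29 of 35 members with a median of 0.47, where the median of all probe sets was 0.03 and 0.555% of them were called higher and 0.708% lower. It was largest for Rpl8 at 0.91 ± 0.23 (limma adjusted p = 0.0865), then Rps19 at 0.85 ± 0.32, Rps18 at 0.84 ± 0.25, Rpl7l1 at 0.81 ± 0.28 and Rps10 at 0.77 ± 0.25. The lowest adjusted p of a member was 0.0688, for Rpl7 at 0.76 ± 0.18, and 13 members had an unadjusted p under 0.05. At 6 h 0 members were called as well, where 0.443% of all probe sets were called higher and 0.515% lower, and 1 member had an unadjusted p under 0.05.

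The bright members shared a profile over the 15 arrays. Pearson's r between 2 of them had a median of 0.878 over 190 pairs and ran from -0.361 to 0.989, and among the 15 dim members the median was 0.127 over 105 pairs. Against the mean of the other bright members r was 0.992 for Rps18, Rpl8 and Rpl7a, 0.838 for Rpl13a, and -0.045, -0.134 and 0.019 for Rpl41, Rps24 and Rpl37a. All arrays are shared by these values, so time and culture enter each of them. Genes with a symbol outside the member definition were ranked by the likeness of their profile to the mean of all members over the same 15 arrays. The highest were Crip1 (r = 0.978), S100a4 (0.976), S100a1 (0.974), Dnajc2 (0.974) and Gm15772 (0.974). S100a4, a calcium-binding protein, averaged a signal of 2587, 2147 and 431 in GM4 DC at 0, 6 and 20 h and 3221, 2283 and 129 in GM DC.

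Genes that work with the ribosome were taken from lists drawn up by name. Elongation factors and mRNAs known to carry a TOP tract gave 12 measured genes of 13, of which 7 were lower at 20 h in GM4 DC and 8 in GM DC, with medians of -0.67 and -1.36. Of all probe sets 12.3% were lower at 20 h in GM4 DC and 16.0% in GM DC. Eef2, which moves the ribosome along the mRNA, was lower by 1.31 in GM4 DC and by 1.72 in GM DC, and Eef1a1, which delivers aminoacyl-tRNAs, by 0.65 and 1.72. Naca, a ribosome-associated chaperone subunit, was lower by 1.10 and 2.35. Eef1a1 was the 1 gene of this list whose responses differed at 20 h, with GM4 minus GM at 1.07 ± 0.24 (limma adjusted p = 0.0434). Tpt1 and Eef1g were at -0.15 and -0.10 in GM4 DC and -0.15 and 0.03 in GM DC, and neither passed. Fau, whose product includes a small subunit protein fused to a ubiquitin-like one, was at 0.22 and 0.35 and did not pass either.

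Many ribosome assembly genes were already lower at 6 h. Of 43 measured genes of ribosome biogenesis and RNA polymerase I, 14 were lower at 6 h in GM4 DC and 26 at 20 h, with medians of -0.41 and -0.68, and 25 were lower at 6 h in GM DC and 29 at 20 h, with medians of -0.64 and -0.98. Of all probe sets 10.0% were lower at 6 h and 12.3% at 20 h in GM4 DC, and 15.7% and 16.0% in GM DC. Nop56 and Nop58, core proteins of the box C/D particles that methylate ribosomal RNA, were lower by 1.42 and 1.24 at 6 h in GM4 DC and by 1.44 and 1.64 in GM DC. Nhp2, of the particles that make pseudouridine, was lower by 1.80 at 20 h in GM4 DC and by 2.83 in GM DC. Sbds, which helps to release a factor from the large subunit, was higher at both times in both cultures, by 0.87 at 20 h in GM4 DC and by 0.98 in GM DC.

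Mitochondrial ribosomal proteins, which build a separate ribosome inside mitochondria, were lower for 12 of 61 genes at 6 h and 24 at 20 h in GM4 DC, and for 33 at 6 h and 37 at 20 h in GM DC. At 6 h the medians were -0.31 and -0.66, where those of the cytosolic members were -0.11 and -0.01. Initiation factors were lower for 8 of 28 genes at 6 h and 10 at 20 h in GM4 DC, and for 8 and 16 in GM DC, and the subunit Eif3l was lower by 1.44 and 1.63 at 20 h. Higher were 2 initiation factors at 6 h and 1 at 20 h in GM4 DC, and 1 at each time in GM DC. For comparison with both lists, 10.0% of all probe sets were lower at 6 h and 12.3% at 20 h in GM4 DC. In GM DC 15.7% and 16.0% were lower, and 5.84% to 11.0% were higher over these 4 comparisons.

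**Figure D4:**
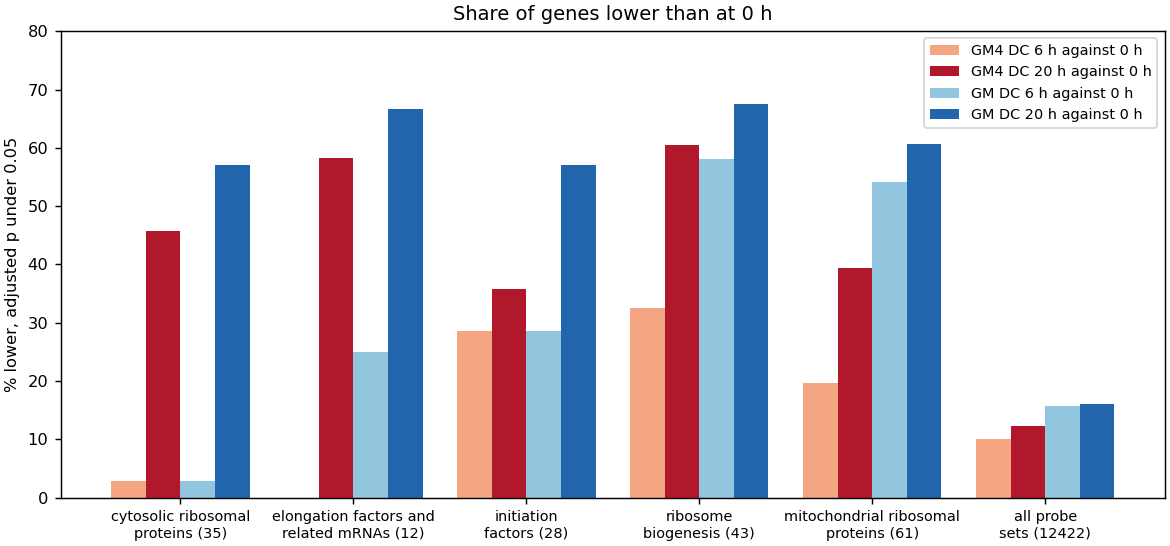
Share of genes (y axis, %) with a signal lower than at 0 h, adjusted p under 0.05, for the cytosolic ribosomal proteins and 4 related lists, with all probe sets on the right (number measured in brackets). Cytosolic ribosomal proteins had 1 of 35 genes lower at 6 h in either culture and 16 and 20 at 20 h in GM4 and GM DC, whereas ribosome biogenesis had 14 and 25 of 43 lower at 6 h.

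Of 22 measured regulators of translation 4 were higher and 4 lower at 20 h in GM4 DC, where 8.71% of all probe sets were higher and 12.3% lower. In GM DC 7 were higher and 4 lower, where 11.0% of all probe sets were higher and 16.0% lower, so the count of lower genes was near the background in both cultures. Ddit4, an inhibitor of mTOR signalling, was higher by 1.60 in GM4 DC and by 2.98 in GM DC, and Eif4ebp1, which holds back the cap-binding factor, by 1.59 and 1.88. Its paralogue Eif4ebp2 was lower, by 1.02 in GM4 DC and by 1.19 in GM DC at 20 h and by 1.28 and 1.81 at 6 h. Atf4, a transcription factor of the stress response, was higher by 1.47 and 1.95. Myc, a transcription factor that drives ribosomal genes, was lower by 1.24 and 1.42 at 20 h and already by 1.33 and 1.02 at 6 h. Larp1, which binds TOP mRNAs, was higher at 6 h by 0.95 in GM4 DC and by 1.08 in GM DC.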

How the data were processed

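Biotin-labelled RNA of 15 samples was measured on 15 Affymetrix mouse arrays, per the labels' protocols. The files deposited by the authors give a linear intensity for each probe set, made with MAS5 per the submitters' processing notes (version not given in the sources used here). Scaling by the authors is seen in the 2% trimmed mean, which lay between 149.96 and 149.97 on every array. MAS5 adjusts each array separately, and its low signals are noisy. Detection calls and probe-level data were not used here.

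Samples were grouped by title. The labels say that 3 biological replicates were made but that not all RNA was good enough. After 66 control probe sets were left out, log2(signal + 16) of 12422 probe sets was fitted without a filter in R 4.3.3 with limma 3.58.1 (6 group means, intensity trend, 9 residual degrees of freedom, prior 4.76), giving 9 contrasts with Benjamini-Hochberg adjustment per contrast. The fit was tested on simulated data. A single symbol was annotated to 10833 probe sets, more than 1 to 396 and no symbol to 1193, and a reference table matched by Entrez number for 10817 changed 0 symbols. The number of arrays limits the precision.

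The members and lists were chosen with earlier results of these data known. Named members were the 5 largest increases and decreases per contrast, the 3 brightest and dimmest, pairs of paralogues, and members with a known role outside the ribosome. Of other lists the largest called changes were to be named, and Tpt1, Eef1g, Eef1a1, Eif3l, Fau, Sbds and Larp1 were named after their values were seen. Promoters are from RefSeq's table, read by Entrez gene number. The alternatives tried were an offset of 1 or 64 before log2, median centring, quantile normalization, leaving out the dimmest 40% of probe sets, a replicate block, only the groups compared, RNA quality as a covariate, averaging a gene's probe sets, and leaving out each array in turn.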

Additional observations from a re-analysis of the deposited data

How the results depend on the processing

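The falls at 20 h kept their count within 1.5 times under all 9 alternatives and all leave-outs, at 11 to 16 calls in GM4 DC and 16 to 20 in GM DC when an array was left out, and of single falls 226 of 240 values in GM4 DC and 293 of 300 in GM DC kept direction and call. Leaving out an array gave 0 to 6 calls for GM4 against GM at 0 h, 0 to 7 at 6 h and 6 to 10 at 20 h, 0 to 1 for GM4 DC at 6 h, 2 to 3 for GM DC at 6 h, and 0 for both differences of responses. For GM4 against GM at 0 h the filter gave 9 calls, only the groups compared 0 and the RNA covariate 0. At 6 h the same comparison gave 15 with quantile normalization, 9 with the filter, 9 with the replicate block, 1 with only the groups compared and 1 with the RNA covariate, and at 20 h the RNA covariate gave 5. For GM DC at 6 h quantile normalization gave 12 and the mean of all probe sets 5. For the difference of responses at 20 h quantile normalization gave 4 calls, the filter 2, the replicate block 1 and the mean of all probe sets 1. A fit chosen after seeing the data, without GM 0 h replicate 3 and GM 6 h replicate 1, gave 1 call at 0 h and 0 at 6 h for GM4 against GM. Signs turned for Rpl41 at 6 h with quantile normalization (0.12), and for Rps4x with the mean of all probe sets, at -0.11 for GM4 against GM at 20 h, 0.36 for GM4 DC and 0.43 for GM DC at 20 h, where the averaged probe sets include one that rose. The causes of the other changes were not tested. Median centring moved the median of all probe sets in GM DC to 0.11 at 6 h and 0.13 at 20 h, against -0.01 and 0.01. Same-numbered arrays of different groups correlated at 0.00260 to 0.332 in their deviations, all above 0 and over 0.1 for 17 of 33 pairs. The main fit treated arrays as unpaired and the block is given here only, so a shared origin of same-numbered arrays is not excluded. The 3 pairs of GM4 DC at 6 and 0 h were each over 0.1, with every array correlating best with its own number, and the block left that comparison at 1 call. Signals under 16 limit what the 6 dimmest members can show.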

Other observations

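A further 39 probe sets are annotated with a ribosomal protein gene together with other symbols and stand outside the rule, so no gene is named from them. At 20 h 25 of them were lower and 2 higher in GM4 DC, and 30 were lower and none higher in GM DC. The medians were -0.66 and -1.19 on the log2 scale. The shares of all probe sets were 12.3% lower and 8.71% higher in GM4 DC, and 16.0% lower and 11.0% higher in GM DC. At 20 h 19 of the 39 were higher in GM4 DC than in GM DC and 0 lower, with a median difference of 0.66. In that comparison 3.14% of all probe sets were higher and 1.56% lower. The differences of responses at 20 h called 3 of the 39 higher and 0 lower, where 0.555% of all probe sets were higher and 0.708% lower. At 6 h 0 of the 39 were called in GM4 DC, where 10.0% of all probe sets were lower and 5.84% higher. In GM DC 2 of the 39 were lower and 0 higher at 6 h, where 15.7% of all probe sets were lower and 8.52% higher. The array's control probe sets for 18S ribosomal RNA had signals of 46.2 to 141 at the 3′ end and of 8.00 to 54.0 at the 5′ end over all arrays, and the highest of both were in GM DC at 6 h.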
